A study of Danaus plexippus with 32 samples.

Results

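The daytime comparison of *Clk* knockout and wild-type monarch butterflies (*Danaus plexippus*) rested on 8 of the 32 RNA-sequencing libraries of the series. They were all 4 libraries of *Clk* knockout brains and all 4 libraries of wild-type brains collected at ZT4 and ZT10, where ZT is the number of hours since lights-on and both times fall in the light phase. *Clk* knockouts are a monarch strain without a functional CLK protein, the wild-type butterflies came from the laboratory colony, and the report also draws on *Cry2* knockouts, a strain without a functional CRY2, and on the night libraries of ZT16 and ZT22. Each library held 3 pooled adult brains, dissected free of eye photoreceptors, and each genotype and time had 2 libraries, replicate 1 from males and replicate 2 from females. All butterflies were kept in 15 h of light and 9 h of darkness at 25 °C for at least 7 days after eclosion. Replicate number and sex therefore cannot be told apart, and pooling leaves no value for a single brain.

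In the circadian clock of the monarch, a heterodimer of the transcription factors CLK and BMAL1 binds E-box elements and activates genes whose products act back on it. CRY2 is the main transcriptional repressor of this heterodimer, and PER and TIM are its partners in the repressor complex. The clock genes *vri* and *cwo* encode further transcriptional repressors, known from *Drosophila* as direct CLK targets that form additional feedback loops. Loss of CLK thus removes the activator of the loop.

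Reads recovered on annotated genes from the confidence intervals of the deposited FPKM values summed to 3157577 to 3804873 per library. The paper lists more mapped reads than this for each of the 8 libraries, and the most for *Clk* knockout ZT4 replicate 1. The recovered sums are therefore not the full depth. One library stood apart from the other 7. The median scale factor of *Clk* knockout ZT4 replicate 1 was 0.806, against 0.968 to 1.09 in the others, and the single locus DPOGS214898 took 38.5% of its FPKM sum, against 25.2% to 32.6% in the others. These shares of FPKM are not shares of reads. The locus had 207 recovered reads in that library and 109 to 156 in the others. All levels below are FPKM divided by these scale factors (scaled FPKM), and differences are in log2(scaled FPKM + 1). The identifier of *Clk* in the files is not paired with a name in the sources used here, so the level of the targeted gene was not analysed here. Markers of neurons (*VGlut*, *cac*, *Nplp1*) summed to 152 to 159 scaled FPKM in wild-type and to 139 to 181 in knockout libraries, and markers of glia (*Eaat2* and the 2 gene models named *e*) to 494 to 599 and 412 to 556. The gene models listed as eye markers (*ninaB*, 2 named *santa-maria*, *Pdh* and *sev*) summed to 178 to 241 and 179 to 202. The 2 *santa-maria* models alone were at 59.1 to 85.4 and 56.8 to 80.9 in wild-type, and the sum was not taken as eye RNA. The fat body marker *fabp* was at 14.9 to 18.75 scaled FPKM in wild-type and 17.0 to 38.7 in knockout libraries, and the muscle marker *CBP* at 9.65 to 20.4 and 7.63 to 17.55. None of the 13 marker gene models of neurons, glia, eye, fat body and muscle was at 0 or passed the test between genotypes, and in bulk tissue fewer cells of a type and less RNA per cell cannot be told apart. All 13 come from the published table of rhythmic genes. In wild-type, *cac* changed by -0.81 and *ninaB* by 0.82 log2 units from ZT4 to ZT10. Other markers looked for, such as *elav* and *repo*, could not be paired with an identifier. These sums are therefore no measure of cell composition on their own.

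Few genes passed the test between genotypes by day. Of 10259 genes with an FPKM of at least 3 in any of the 8 libraries, 8 were called, which here means a Benjamini-Hochberg adjusted p from limma of at most 0.05. They were 0.078% of the genes tested, with 4 higher (0.039%) and 4 lower (0.039%) in *Clk* knockouts. Of the 4 higher genes, 3 had an FPKM under 3 in every wild-type library and entered the test only through the knockout libraries, and with an FPKM of at least 3 required in every library 5 of the 8 were called, 1 higher and 4 lower. At an unadjusted p-value under 0.05 there were 1386 genes (13.5%), 714 higher (6.96%) and 672 lower (6.55%), and the median difference over all genes tested was 0.002 on the log2 scale. In 835 genes (8.14%) the 4 knockout libraries lay entirely outside the range of the 4 wild-type libraries, 380 above it (3.7%) and 455 below it (4.44%). The clock gene *per* was the only called gene with a name. Without scaling between libraries the median difference was -0.129 and 10 genes were called, 3 higher and 7 lower, so that all differences are relative to the scaling. Without *Clk* knockout ZT4 replicate 1, 9 genes were called, 6 higher and 3 lower, of which 4 were among the 8. Left out in turn, the other libraries gave 0 to 6 calls, with 0 calls without wild-type ZT4 replicate 2 or without *Clk* knockout ZT10 replicate 1.

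**Figure D1:**
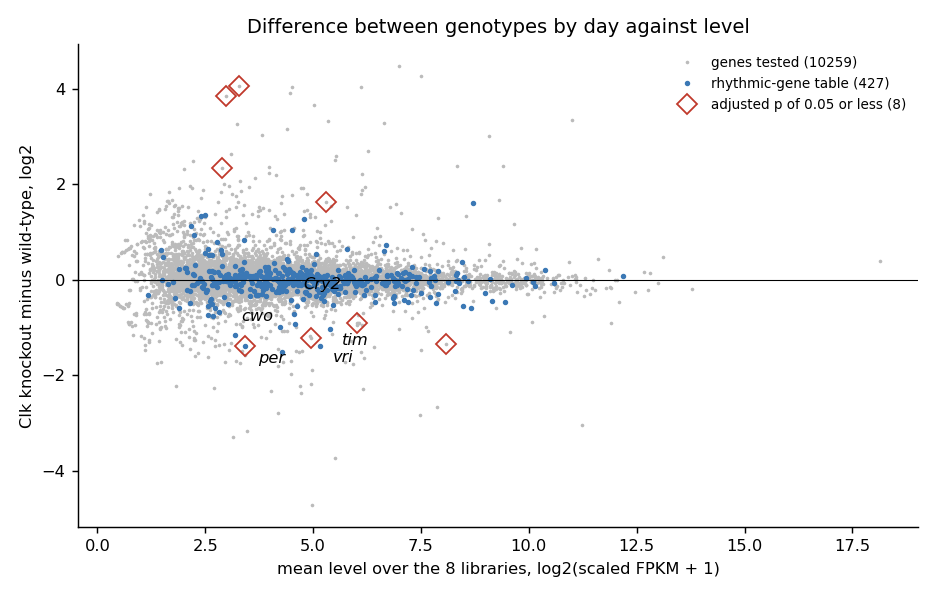
Difference between *Clk* knockout and wild-type by day on the log2 scale (vertical axis) against the mean level in log2(scaled FPKM + 1) (horizontal axis), 1 point per gene, for the 10259 genes tested (grey), the 427 of them from the published table of rhythmic genes (blue) and the 8 genes called (red diamonds). Most genes lie near 0, *per*, *tim* and *vri* lie more than 1 log2 unit below it, and *per* is the only diamond among the blue points.

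Among the clock genes, *per* fell in *Clk* knockouts over the daytime hours tested together. The gene (DPOGS203908, scaffold DPSCF300005:951403-967368, assembly v3) had 14.85 and 13.55 scaled FPKM in the wild-type libraries of ZT4 and 13.8 and 15.7 in those of ZT10. The *Clk* knockout libraries had 4.33 and 5.94 at ZT4 and 4.43 and 4.99 at ZT10. The ranges were far apart, and the knockout mean of 4.92 ± 0.739 (SD, n = 4) was 34.0% of the wild-type mean of 14.5 ± 0.995. The difference was -1.39 ± 0.10 (SE) on the log2 scale with an adjusted p of 0.0151 (limma). It ranged from -1.55 to -1.34 over 16 alternatives and passed the threshold in 9 of them, with an adjusted p of 0.0516 without *Clk* knockout ZT4 replicate 1, of 0.0584 to 0.108 without any 1 of the 4 wild-type libraries or the *Clk* knockout libraries of ZT10, and of 0.0438 without *Clk* knockout ZT4 replicate 2. At ZT4 alone the difference in *per* was -1.32 ± 0.15 and at ZT10 -1.46 ± 0.15, with adjusted p-values of 0.141 and 0.101. The level of *per* did not pass the test between ZT4 and ZT10 in either genotype.

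In the other clock genes with a lower level, the distance between the genotypes lay mostly at ZT10. The wild-type level of *tim* (DPOGS214179, DPSCF300014:142094-150218), the partner of PER, was 35.2 and 36.15 scaled FPKM at ZT4 and 73.0 and 81.2 at ZT10. The knockout level was 23.6 and 25.15 at ZT4 and 21.5 and 31.0 at ZT10, below all wild-type libraries, and the difference over both times was -1.04 ± 0.22 (adjusted p = 0.156). At ZT4 the difference in *tim* was -0.53 ± 0.14 and at ZT10 it was -1.54 ± 0.14, with adjusted p-values of 0.492 and 0.0802. Its interaction of genotype and time was -1.005 ± 0.19 and did not pass (adjusted p = 0.783, limma).

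The bZIP repressor *vri* (DPOGS208606, DPSCF300052:257703-259229) had 16.1 and 24 scaled FPKM at ZT4 and 88.1 and 86.8 at ZT10 in wild-type. In *Clk* knockouts it was between 14.3 and 16.55 in all 4 libraries, which overlapped the wild-type libraries of ZT4 and lay far below those of ZT10. The difference in *vri* at ZT10 was -2.47 ± 0.18 on the log2 scale (adjusted p = 0.073) and at ZT4 -0.30 ± 0.18 (adjusted p = 0.726). The interaction of genotype and time was -2.17 ± 0.25, with an adjusted p of 0.238.

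The repressor gene *cwo* (DPOGS209925, DPSCF300180:115531-130653) showed the same order at a lower level. It had 5.05 and 6.18 scaled FPKM in wild-type at ZT4, 12.3 and 11.9 at ZT10, and 4.58 to 6.59 in the knockout libraries. The difference in *cwo* was 0.05 ± 0.19 at ZT4 and -1.07 ± 0.19 at ZT10 (adjusted p = 0.978 and 0.273), so that none of these genes but *per* passed the test over all genes. For *cwo* the interaction of genotype and time was -1.115 ± 0.27 and did not pass (adjusted p = 0.97, limma). When genes were also required to have at least 10 recovered reads in at least 4 libraries, a filter chosen after the values were seen, *vri* and *tim* passed at ZT10 with adjusted p-values of 0.041 and 0.042, and *cwo* did not.

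*Cry2* (DPOGS208079, DPSCF300282:74489-79584), the repressor gene of the loop, was the only one of the 5 clock genes with a higher mean in the knockout. Its level was 21.1 and 22.3 scaled FPKM at ZT4 and 17.8 and 19.5 at ZT10 in wild-type, and 24.7 and 22.6 at ZT4 and 20.2 and 22.9 at ZT10 in *Clk* knockouts. The knockout library was the higher one in all 4 pairs of the same time and replicate number, by 0.16 ± 0.07 on the log2 scale, and this did not pass the test (adjusted p = 0.396). The ranges of the genotypes overlapped.

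**Figure D2:**
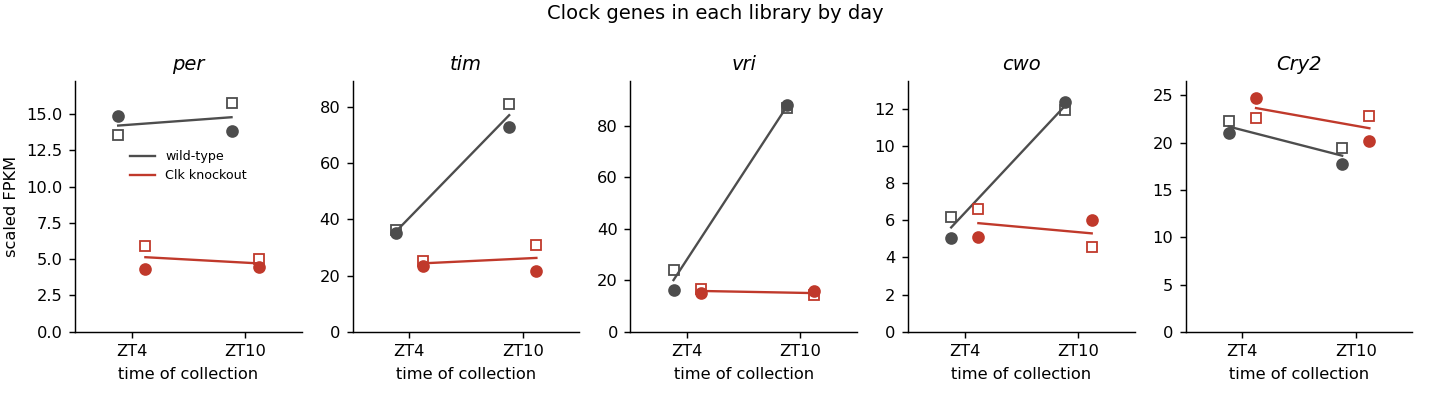
Scaled FPKM (vertical axis, from 0) of 5 clock genes at ZT4 and ZT10 (horizontal axis) in wild-type (grey) and *Clk* knockout (red) brains, with filled circles for replicate 1, open squares for replicate 2 and lines through the means of 2 libraries. *per* is low in the knockout at both times, the ZT10 libraries of *tim*, *vri* and *cwo* lie far above the other libraries in wild-type (73.0 and 81.2 for *tim*) and close to those of ZT4 in the knockout (21.5 and 31.0), and *Cry2* overlaps between genotypes.

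To ask at which hour the genotypes differed, ZT4 and ZT10 were also tested apart in a fit of the same 8 libraries. At ZT4, 3 genes passed (0.0292%), all higher in *Clk* knockouts, and at ZT10 2 genes passed (0.0195%), 1 higher and 1 lower (0.00975% each). At an unadjusted p-value under 0.05 there were 821 genes at ZT4 (8.0%) and 1042 at ZT10 (10.2%). Between ZT10 and ZT4, 4 genes passed in wild-type (0.039%) and 2 in *Clk* knockouts (0.0195%), and 4 genes passed in the interaction of genotype and time (0.039%). The shares at an unadjusted p-value under 0.05 were 5.18%, 4.96% and 4.83% for these contrasts. None of these genes has a name in the sources used here. They were 5 genes in all, including those of the comparison of day and night given below, and none had more than 3 recovered reads in any of the 8 libraries, so that each call rests on a few reads. With the filter of 10 recovered reads, 3 genes passed at ZT4 and 6 at ZT10, among them *E(spl)mbeta-HLH*, *vri* and *tim*, and no gene passed in the interaction or between times.

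Of the 7 called genes without a name, both genes with the largest rise were listed at 0 in all 4 wild-type libraries by day. DPOGS202842 (DPSCF300018:991803-995396) had 6.40, 16.8, 27.3 and 19.9 scaled FPKM in the *Clk* knockout libraries, in the order ZT4 replicates 1 and 2 and ZT10 replicates 1 and 2, from 4 to 16 recovered reads (adjusted p = 0.0261). DPOGS207192 (DPSCF300001:5572144-5572400) had 12.9, 17.4, 15.7 and 8.83 scaled FPKM, from 5 to 9 recovered reads (adjusted p = 0.00769). Both genes passed the filter on low values only through the knockout libraries, where they are high, so that their calls are no independent support for a difference, and they rest on few reads.

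The genes with the largest falls among those without a name had at least 14 recovered reads in every library. DPOGS203004 (DPSCF300068:42707-49407) had 333.5, 416, 398 and 404 scaled FPKM in wild-type and 122.5, 165.5, 151 and 174 in *Clk* knockouts, so that the knockout mean was 39.5% of the wild-type mean. The difference was -1.34 on the log2 scale (adjusted p = 0.00769). DPOGS214098 (DPSCF300014:2146449-2147971) had 42.5 ± 4.64 scaled FPKM in wild-type and 17.7 ± 2.55 in *Clk* knockouts (SD, n = 4), a difference of -1.225 (adjusted p = 0.025). The other 3 called genes, 2 higher and 1 lower, had differences of 2.35, 1.62 and -0.91. Of the 4 genes given here by identifier, DPOGS207192 lost its call without wild-type ZT4 replicate 2 and without *Clk* knockout ZT10 replicate 1 (adjusted p = 0.0584 and 0.0625), and DPOGS203004 without these libraries and without *Clk* knockout ZT10 replicate 2 (0.0584, 0.0625 and 0.0748). DPOGS202842 and DPOGS214098 each lost it without 7 of the 8 libraries left out in turn.

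The change between the hours was then compared in the rhythmic genes. The published table of rhythmic genes gave names to all named genes here, and 427 of its genes were tested. It was chosen on wild-type libraries that include the 4 used by day, so the wild-type values are not independent evidence. For each gene, a 24-h cosine curve was fitted to the 12 wild-type libraries of the 6 other times, and the change it gives from ZT4 to ZT10 was set beside the change measured by day. In wild-type, the measured change followed the curve with a slope of 0.97 (0.98 in replicate 1 and 0.95 in replicate 2) and had its sign in 361 of 427 genes (84.5%). In *Clk* knockouts the slope was 0.17 (0.12 in replicate 1 and 0.22 in replicate 2), and the sign was shared in 252 genes (59.0%). Pearson's correlations across the 427 genes were 0.82 in wild-type and 0.24 in the knockout, and genes of the same libraries are not independent replicates. The slopes of the replicates within a genotype lay closer to each other than to those of the other genotype, and no test was made on 2 against 2 values.

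The genes with the largest change on the curve showed the pattern most clearly. In 26 genes the curve gave a rise of at least 0.5 log2 units from ZT4 to ZT10, and their median measured change was 0.95 in wild-type and 0.13 in *Clk* knockouts. In 30 genes it gave a fall of at least 0.5, and the medians were -0.78 and -0.11. Over all 10259 genes tested, which were not chosen for rhythm, the median size of the change was 0.11 in wild-type and 0.12 in knockouts. The rhythmic genes were chosen for their change in wild-type, so a smaller change in the knockout than in wild-type is partly given by that choice. By the same measure, the *Cry2* knockout libraries gave a slope of -0.03 (-0.045 in replicate 1 and -0.013 in replicate 2), below that of either *Clk* knockout replicate.

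**Figure D3:**
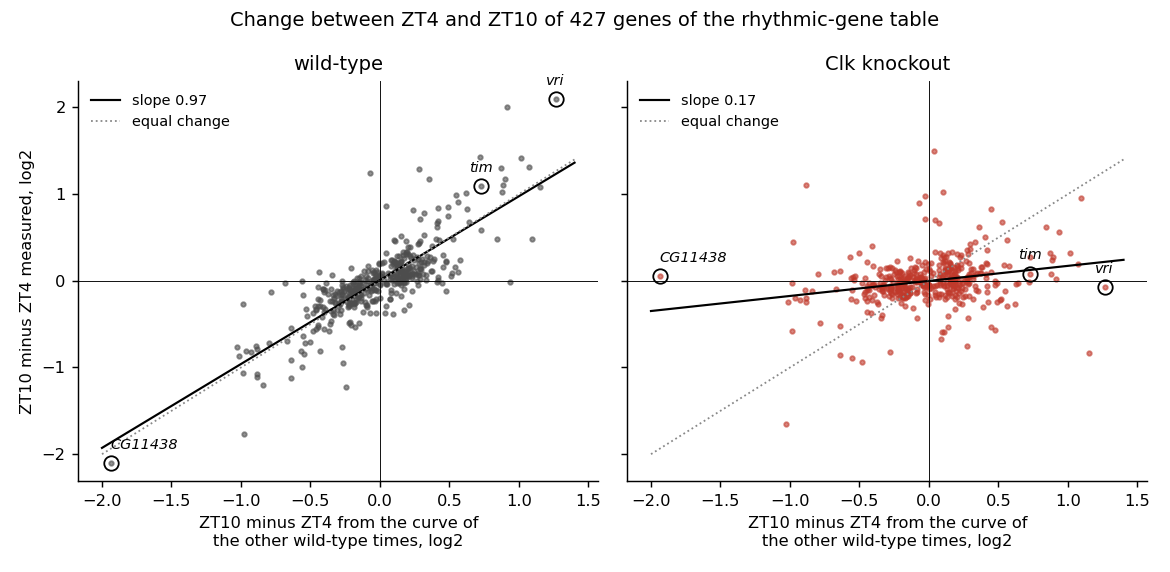
Measured change from ZT4 to ZT10 on the log2 scale (vertical axes) in wild-type (left) and *Clk* knockout (right) against the change given by the curve through the other wild-type times (horizontal axes), 1 point per gene for 427 rhythmic genes, with the fitted line (solid) and the line of equal change (dotted). The points follow the dotted line in wild-type with a slope of 0.97 and lie along 0 in the knockout with a slope of 0.17, where *vri*, *tim* and CG11438 (circled) are near 0.

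Single genes of both directions illustrate it, and they were chosen after their values were seen. *E(spl)mbeta-HLH* (DPOGS200691), a basic helix-loop-helix repressor known in *Drosophila* as a Notch target, had 11.1 and 11.05 scaled FPKM at ZT4 and 49.3 and 45.8 at ZT10 in wild-type, and 5.79 to 9.545 in the 4 knockout libraries. *Tret1-1*, a trehalose transporter, had 6.51 and 7.51 at ZT4 and 18.1 and 14.5 at ZT10 in wild-type, and 3.00 to 7.17 in the knockout, from 3 to 17 recovered reads. CG11438 had the opposite order, with 108 and 79.1 at ZT4 and 19.4 and 22.3 at ZT10 in wild-type, while the knockout libraries lay between 35.1 and 38.1. *Hsf*, the heat shock transcription factor, had 32.1 and 33.15 at ZT4 and 15.3 and 16.4 at ZT10 in wild-type and was at 23.1 to 28.9 in the knockout. The knockout level of the last 2 genes lay between the wild-type levels of the hours, and their differences over both hours were -0.29 and 0.16 with adjusted p-values of 0.808 and 0.776. The adjusted p-values of the interaction of genotype and time were 0.344 for *E(spl)mbeta-HLH* and 0.238 for CG11438.

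The sign of the small median difference between genotypes varied with the peak time that the curves gave. Genes that peak in wild-type from ZT0 to ZT7.5 were lower in *Clk* knockouts in 99 of 144 (49.4% over all genes tested), with a median difference of -0.07, which was -0.15 at ZT4 and 0.01 at ZT10. Those that peak from ZT7.5 to ZT15 were lower in 85 of 146, with a median of -0.04, which was 0.05 at ZT4 and -0.08 at ZT10. Genes that peak from ZT15 to ZT24 were higher in 86 of 137 (50.6% over all genes tested), with a median of 0.045, which was 0.01 at ZT4 and 0.06 at ZT10. The median over all genes tested was 0.004 at ZT4. These medians were not tested. The genes were chosen as rhythmic on wild-type libraries that include those by day, so the signs are partly given by that choice. Without scaling between libraries the medians over both times were -0.20, -0.175 and -0.09, all below 0.

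The level over both hours was compared in 10 lists of named rhythmic genes, grouped by function and drawn from the same table, so that they are not independent of the wild-type libraries. Only the clock list held a called gene. Over all 427 rhythmic genes, 15 lay above and 31 below the wild-type range. Over all genes tested 3.7% lay above and 4.44% below it, which is the background for the counts of the lists. Of the rhythmic genes, 90 (21.1%) had an unadjusted p-value under 0.05 against 13.5%. The median difference was -0.02 for the rhythmic genes and 0.002 for all genes. Members outside the wild-type range that are not the most abundant of their list are named because of their values, and were thus chosen after these were seen.

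None of the enzymes of glycolysis passed the test. All 10 were measured, none lay outside the wild-type range, and their differences ran from -0.10 to 0.05 on the log2 scale with a median of -0.01. *Gapdh2*, the most abundant, had 964 ± 24.01 scaled FPKM in wild-type and 984.5 ± 51.25 in *Clk* knockouts (SD, n = 4), and *Eno* had 385 ± 15.9 and 380.0 ± 10.9. The lowest adjusted p of the list was 0.699.

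Genes of trehalose and glycogen metabolism were lower in 9 of 10 members without any passing the test, with a median of -0.20. *Tps1*, which makes the blood sugar trehalose in insects, had 120.0, 134, 130.5 and 138 scaled FPKM in wild-type and 95.2 to 102 in the 4 *Clk* knockout libraries, a difference of -0.385 ± 0.06 (adjusted p = 0.116). The knockout libraries all lay below the wild-type libraries. *GlyP*, glycogen phosphorylase, had 153 ± 2.72 and 133 ± 7.99 (adjusted p = 0.259), and the other 8 members overlapped. In the list of other central carbon enzymes 0 of 8 passed, 1 (CG8036) lay below the wild-type range, and the median was -0.04. *Argk*, arginine kinase, and *Mdh1*, malate dehydrogenase, its most abundant members, overlapped between genotypes. *Pepck*, the gatekeeper enzyme of gluconeogenesis, singled out after its values were seen, had 9.00, 13.4, 13.5 and 18.1 in wild-type and 15.8, 23.5, 41.4 and 39.4 in the knockout, higher in 4 of 4 pairs by 1.04 ± 0.16 with an adjusted p of 0.115.

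Of 19 neurotransmission genes 0 passed and 3 lay below the wild-type range, with a median of -0.04. These were *Ddc*, the dopa decarboxylase of dopamine and serotonin synthesis, *Ace*, acetylcholinesterase, and *GABA-B-R1*, a metabotropic GABA receptor. *Ace* had 173 to 217 scaled FPKM in wild-type and 156 to 170.4 in *Clk* knockouts, and the differences of the 3 genes ran from -0.33 to -0.28 with adjusted p-values of 0.226 to 0.235. *e*, which conjugates amines, overlapped between genotypes in both of its gene models.

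Among the heat shock genes and chaperones, 2 of 10 lay below the wild-type range and none passed, and the median was -0.18 at ZT4 and 0.32 at ZT10. *Hop*, a co-chaperone that links Hsp70 and Hsp90, had 47.4, 47.5, 48.2 and 47.8 scaled FPKM in wild-type and 41.4, 38.9, 41.2 and 39.8 in *Clk* knockouts (adjusted p = 0.165). *stv*, a co-chaperone of Hsp70 in *Drosophila*, was similar at 76.4 to 83.7 against 59.8 to 68.3 (adjusted p = 0.156). The small heat shock gene model *l(2)efl* with the highest level (DPOGS206382) had 404 and 399 at ZT4 and 198 and 216.5 at ZT10 in wild-type, and 398, 366, 558 and 238 in the knockout, so that the knockout libraries of ZT10 differed widely from each other. *Droj2*, the other abundant member, a DnaJ-like chaperone, had 138 ± 2.19 and 127 ± 7.60 (adjusted p = 0.414).

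Of 22 transcription regulators tested, 0 passed, 1 lay above and 2 below the wild-type range, and the median was -0.06. Those below were *E(spl)mbeta-HLH* and *mamo*, a zinc finger gene, which had 20.9 to 28.15 scaled FPKM in wild-type and 17.4 to 18.98 in *Clk* knockouts (DPOGS202608, difference -0.425 ± 0.07, adjusted p = 0.124). The one above was *SREBP*, a regulator of lipid synthesis, with 18.99 to 21.0 scaled FPKM in wild-type and 22.05 to 22.6 (adjusted p = 0.281). Both gene models of *gem*, the most abundant members, overlapped between genotypes (adjusted p = 0.944 and 0.983). Of 20 membrane transport genes 0 passed, and *Mdr65*, an ABC transporter of the blood-brain barrier in *Drosophila*, was the only one outside the range. It had 460.2, 501, 401 and 337 in wild-type and 290.1, 306, 292 and 257 in the knockout, a difference of -0.555 ± 0.095 (adjusted p = 0.124). The gene model of CG7888 with the highest level (DPOGS202993) overlapped, at 336 ± 24.5 against 286 ± 19.5 (adjusted p = 0.273).

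The carotenoid and photoreceptor list had 1 of 5 members below the range, *sev*, a receptor kinase of photoreceptor fate, at 24.4 to 26.3 scaled FPKM in wild-type and 20.2 to 22.7 in *Clk* knockouts (adjusted p = 0.195). Both gene models of *santa-maria*, a scavenger receptor of carotenoid uptake in *Drosophila*, overlapped (adjusted p = 0.472 and 0.787). In the translation list of 8 genes only *RpS20*, a protein of the small ribosomal subunit, lay outside the range, at 642 to 661 against 408 to 516 (difference -0.45 ± 0.08, adjusted p = 0.124). *RpL38* and *RpL27*, of the large subunit, overlapped between genotypes at 1551 ± 87.7 against 1492 ± 276 and 807 ± 26.1 against 748.5 ± 87.9.

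**Figure D4:**
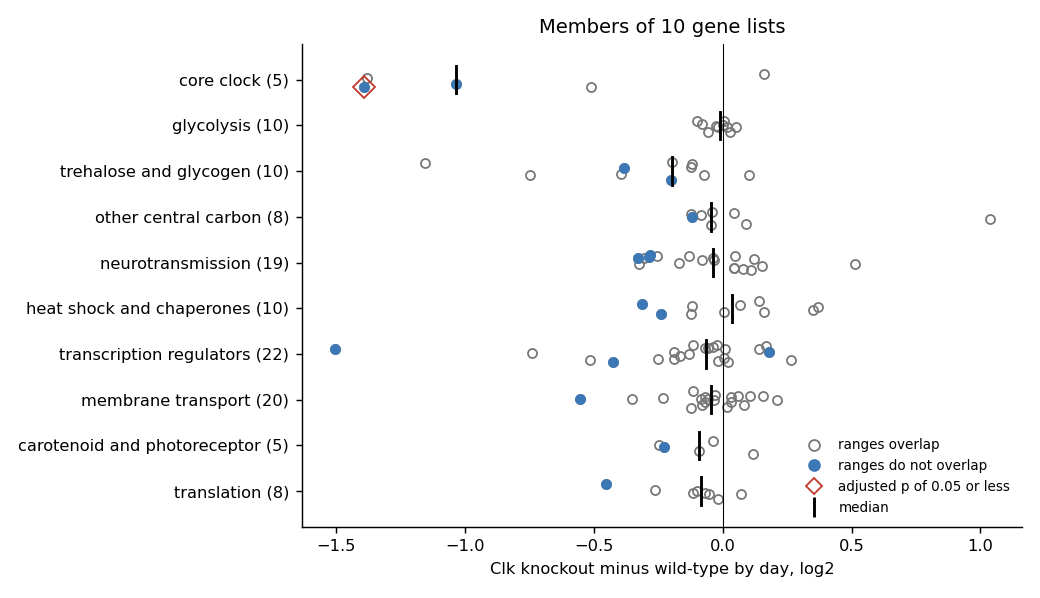
Difference between *Clk* knockout and wild-type by day on the log2 scale (horizontal axis) for the members of 10 gene lists (rows, with the number tested), as open circles where the ranges of the genotypes overlap, blue circles where they do not, a red diamond for the called gene *per* and a black bar for each median. The clock list has the lowest median, at -1.035, and glycolysis lies closest around 0.

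To see whether the daytime differences were also found at night, the same comparison was made in the 8 libraries of ZT16 and ZT22, which share no library with the day but come from the same strains. All 8 genes called by day had the same sign at night, each at an unadjusted p-value under 0.05 in the night fit. The same held for 24.9% of the genes with an unadjusted p-value under 0.05 by day and for 8.49% of all genes tested in both, and 3 of the 8 had passed the filter by day only through the knockout libraries. Of the genes outside the wild-type range by day that were also tested at night, 715 (86.2%) had the same sign at night, against 6618 of 10061 (65.8%) over all genes tested in both. The night difference of *per* was -2.71 ± 0.12 beside -1.39 by day, that of *tim* -1.53 beside -1.035, and that of *cwo* -1.68 beside -0.51. *vri* had the smaller difference at night, with -0.87 at night and -1.38 by day. In the night fit 8 genes were called (0.0778%), and they included *per*, *tim* and *cwo* (adjusted p = 0.00125, 0.017 and 0.0104) and not *vri*. *Cry2* was -0.34 at night and 0.16 by day and passed at neither. The difference between day and night was tested over 16 libraries, and 1 gene passed (0.00954%, beside 3.9% at an unadjusted p-value under 0.05), with at most 1.99 recovered reads in any library. For *per* it was 1.31 ± 0.17 with an adjusted p of 0.0855, and for *cwo* 1.16 ± 0.21 with an adjusted p of 0.348, so that neither passed. The count rose to 397 without wild-type ZT22 replicate 1, which leaves ZT22 replicate 2 alone at that hour, and was 1 to 3 without any other library.

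The *Clk* and *Cry2* knockouts, which lack the activator and the repressor, were compared directly by day, since both comparisons with wild-type share the wild-type libraries. Here 16 of 10244 genes passed (0.156%), 13 lower (0.127%) and 3 higher (0.0293%) in *Clk* knockouts, and 4 of them were clock genes. *per* had 41.45 to 43.6 scaled FPKM in the 4 *Cry2* knockout libraries and 4.23 to 5.805 in the 4 *Clk* knockout libraries on the scale of this comparison, a difference of -2.91 ± 0.09 (adjusted p = 0.000295). *cwo* had 19.3 to 22.8 and was at 4.46 to 6.44 in *Clk* knockouts, a difference of -1.76 ± 0.13 (adjusted p = 0.0106). *tim* was at 58.85 to 65.5 against 21.0 to 30.3, a difference of -1.30 ± 0.11 (adjusted p = 0.0206), and *vri* at 26.9 to 33.1 against 13.9 to 16.2, a difference of -0.96 ± 0.08 (adjusted p = 0.0196). The ranges did not overlap in any of these genes. The count of called genes was 29 without *Clk* knockout ZT4 replicate 1, 10 and 11 without replicate 2 of *Clk* knockouts at ZT4 and ZT10, 7 without *Clk* knockout ZT10 replicate 1, and 6 to 8 without any 1 of the 4 *Cry2* knockout libraries.

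*Cry2* itself did not pass between the strains, with 21.2 to 23.25 scaled FPKM where it was targeted and 19.7 to 24.1 where *Clk* was, and with a difference of -0.02 ± 0.07 (adjusted p = 0.904). *Hsf* was lower in *Clk* than in *Cry2* knockouts, at 22.5 to 28.2 against 46.8 to 56.5, a difference of -1.03 (adjusted p = 0.00504). Against wild-type, *Hsf* was 0.16 in *Clk* and 1.19 in *Cry2* knockouts, and neither passed (adjusted p = 0.776 and 0.0636, limma). Outside the lists, the named genes called were CG11438 with a difference of -1.19, CG5150 with 0.64 and CG42269 with 0.98, which were chosen after their values were seen. Against wild-type, they were in this order -0.29, 0.08 and 0.13 in *Clk* knockouts and 0.896, -0.558 and -0.862 in *Cry2* knockouts, and none of these passed. Set beside wild-type, *per* was -1.39 in *Clk* knockouts and 1.52 in *Cry2* knockouts, and *cwo* -0.51 and 1.255. The values of *tim* were -1.035 and 0.26, and those of *vri* -1.38 and -0.42, so that *vri* was lower in both strains. Of these genes only *per* passed against wild-type, in both strains (adjusted p = 0.0151 and 0.00318, limma). DPOGS202842, listed at 0 in wild-type, ranged over 6.885 to 16.35 scaled FPKM in the *Cry2* knockout libraries and over 6.26 to 26.6 in the *Clk* knockout libraries, and the direct comparison gave 0.52 (adjusted p = 0.597). DPOGS214098 was -1.225 in *Clk* and -1.14 in *Cry2* knockouts, and the direct comparison gave -0.08 (adjusted p = 0.889) for it. The other 2 genes given above by identifier differed more between the strains. DPOGS203004 was -1.34 in *Clk* and 0.05 in *Cry2* knockouts and was called in the direct comparison (-1.39, adjusted p = 0.00618, limma). DPOGS207192, also listed at 0 in wild-type by day, was 3.84 and 0.93, and its direct comparison gave 2.90 (adjusted p = 0.067, limma).

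The genes called by day lay on 8 different scaffolds, at most 1 on each. Genes outside the wild-type range were counted along all scaffolds with at least 20 genes tested, and on DPSCF300354 they were 9 of 27 (33.3%) against 8.14% over all genes. This scaffold was chosen among 171 after the values were seen, and no test was made. On it, 5 neighbouring gene models between positions 85770 and 106774 all had positive differences between *Clk* knockout and wild-type, and 4 of the 5 lay above the wild-type range, with values of 1.62, 0.92, 1.07, 1.02 and 1.72 on the log2 scale. The first of these was called (adjusted p = 0.0369), with 18.4, 13.1, 19.2 and 21.7 scaled FPKM in wild-type and 39.3, 50.2, 79.9 and 67.2 in the knockout. The value of 1.72 (DPOGS211509) rests on 1 to 14.7 recovered reads per library. The value of 1.07 (DPOGS211511) has an SE of 0.39 and rests on 9.6 to 51.9 reads. In the night libraries, the differences were 1.47, 0.70, 0.97, 0.89 and 1.16, and in *Cry2* knockouts by day they were 0.11, 0.05, 0.41, -0.10 and 0.75. The next gene model, from 114353 to 119535, differed by -0.08 by day. Farther along the scaffold, the gene model in place 21 had a difference of 1.55 ± 0.50 (SE) by day and 0.48 at night. Its knockout libraries by day ranged from 1.37 to 8.53 scaled FPKM.

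**Figure D5:**
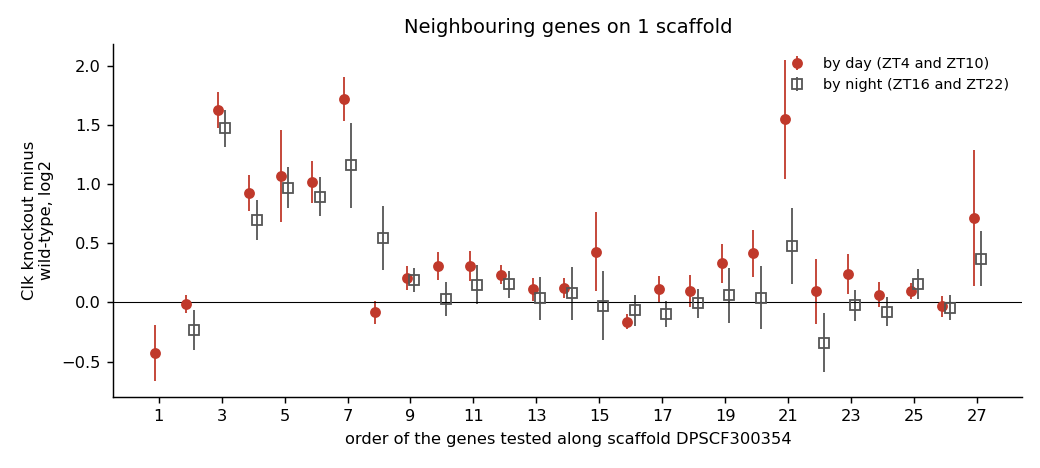
Difference between *Clk* knockout and wild-type on the log2 scale (vertical axis, with SE) for the 27 genes tested on 1 scaffold in their order along it (horizontal axis), by day (red circles) and by night (open squares). Genes 3 to 7 lie between 0.92 and 1.72 by day and between 0.70 and 1.47 by night, gene 21 lies at 1.55 by day, and the other genes are at 0.71 or less by day.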

How the data were processed

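Brain RNA of 32 libraries had been sequenced as 50 bp single-end reads. Mapping by the authors used TopHat2 and monarch assembly v3, Cufflinks gave the levels per library, and the deposited values are FPKM per gene model with a 95% interval for 15130 gene models (CASAVA 1.8.2 is also named in the submitters' processing notes, and the versions of TopHat2 and Cufflinks are not given in the sources used here). The values were not scaled between libraries. Read numbers were recovered from the width of the interval, and 86.19% to 87.69% of the values of up to 20 reads came out whole within 0.05 reads. They were used for depth and 1 filter only, since FPKM are not counts.

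Here, FPKM were divided by a median-of-ratios factor per library, genes with an FPKM of at least 3 in any library of a comparison were kept, and log2(value + 1) was fitted with limma 3.58.1 in R 4.3.3 (moderated statistics, trend on intensity, p-values adjusted by Benjamini-Hochberg across the genes tested, called at 0.05), with genotype, time and replicate number as factors. The pseudocount of 1 makes the log2 difference of low genes smaller than their true ratio. Summaries used Python 3.11.15. The fit was also run on simulated data with independent normal noise and the same difference at both times. That setting is simpler than these data and its outcome is not given, so it lends no weight to single calls. The labels do not say that the 2 libraries of a group differ in more than sex and brains. The p-values rest on the spread left after the factors of the fit, replicate number among them, moderated over the genes tested. The fit over both times has no interaction term, so a difference between genotypes that changes from ZT4 to ZT10 also adds to its SE. For *vri* the SE was 0.45 in that fit and 0.18 at each hour in the fit by hour.

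Alternatives were a pseudocount of 0.1, no filter, a minimum in every library, no scaling, quantile normalization, no replicate factor, no trend, stricter calls (adjusted p of 0.01, or a fold of 1.3), each library left out in turn and, chosen after the data were seen, at least 10 recovered reads in at least 4 libraries. The 4 *Cry2* knockout night files were not used. Names came from the published table of rhythmic genes, and no sequence is printed. The comparison, members and lists were chosen with earlier results of these data known. Named are all clock genes, in each list the members called and the 1 or 2 most abundant others, the 10 named genes with the largest rise and fall among those called with 1 direction in 4 of 4 matched pairs, the 2 such genes without a name in each direction, and the 3 called interaction genes with a name in each direction (there were 0). Others are marked as chosen after their values were seen. A further list member that this rule names is not reported here.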

Additional observations from a re-analysis of the deposited data

Results flagged for a closer look

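The difference between *Clk* knockout and wild-type was tested for a change between ZT4 and ZT10, and 4 genes were called in this interaction. None has a name in the sources used here, and none had more than 3 recovered reads in any daytime library. The difference between genotypes was also tested between day and night, and 1 gene was called, with at most 1.99 recovered reads in any of the 16 libraries. With at least 10 recovered reads in at least 4 libraries, 0 genes were called in either test, beside 496 genes (4.83%) at an unadjusted p-value under 0.05 in the first and 409 (3.9%) in the second without that filter (limma).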

How the results depend on the processing

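Of 16 alternatives, *per* kept its direction in all and its call in 9, and *tim*, *vri*, *cwo* and *Cry2* were not called in any. The 8 genes called by day became 5 with an FPKM of at least 3 in every library (1 higher, 4 lower), 32 with at least 10 recovered reads in at least 4 libraries (11 higher, 21 lower, 6 of them among the 8) and 2 at an adjusted p of 0.01. At ZT4 the count was 7 with a pseudocount of 0.1, 6 with no filter, 0 with the minimum in every library, 9 without scaling and 6 without the trend. At ZT10 it was 4, 0, 4 and 4 for the last 4 of these settings and 6 with the reads filter. Between times in wild-type it was 12, 0, 8 and 9 and in *Clk* knockouts 7, 0 and 7 (no filter, every library, no trend), and in both 0 with the reads filter. The interaction gave 7, 0 and 7, and 0 with the reads filter. Day against night gave 2 with a pseudocount of 0.1, 6 with no filter, 0 with the minimum in every library, 2 without the trend and 0 with the reads filter. *Clk* against *Cry2* knockouts gave 71 with the reads filter, and the most called genes on 1 scaffold were then 2. Medians by phase without scaling were -0.202, -0.175 and -0.091. The cause of these changes was not tested.

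The replicate numbers match the libraries by sex. Over all genes tested, the deviations of same-numbered libraries from their group means correlated by 0.0126 on average (-0.0298 to 0.0621, 6 pairs). A correlation over all genes cannot show whether single genes differ by sex. Without the replicate block, 14 genes were called by day, 8 at ZT4, 8 at ZT10, 9 between times in wild-type, 3 for day against night and 37 for *Clk* against *Cry2* knockouts, with at most 2 on 1 scaffold.

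With 1 library left out, the counts ranged from 0 to 9 by day, 0 to 6 at ZT4, 0 to 5 at ZT10, 1 to 4 and 0 to 4 between times in wild-type and knockouts, 1 to 2 in the interaction, 1 to 397 for day against night, 6 to 29 for *Clk* against *Cry2* knockouts and 0 to 1 for 1 scaffold. The medians by phase ranged from -0.096 to -0.03, -0.064 to -0.019 and 0.018 to 0.065. The 397 came without wild-type ZT22 replicate 1. With 2 libraries per genotype and time and a median interval of 17.7% to 19.3% to either side of a gene's FPKM, small differences can have gone undetected. No limit of detection is given here.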
